A study of Nematostella vectensis with 4 samples.

Results

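The cells described here were cnidocytes of the starlet sea anemone *Nematostella vectensis*, taken as the barcodes that held counts of the minicollagen gene *Nvncol1* (NV2g011820000.1). A barcode was counted as a *Nvncol1* cell when it had at least 500 detected genes, at least 2 *Nvncol1* UMIs (unique molecular identifiers, which count captured RNA molecules) and a *Nvncol1* level of at least 200 CPM (UMI counts of the gene in every 1000000 UMIs of the barcode or group), and no UMI of the neuropeptide gene *NvLWamide*. The rule held for 219 of the 16089 barcodes with at least 500 genes, out of 18779 barcodes in all. The cells came from 1 pool of whole gastrulae at 24 h post fertilization, dissociated and run as 4 droplet libraries on a single chip, and the labels give no genotype, strain or treatment. The 4 libraries are technical replicates of that pool, so the p-values below measure the spread between libraries and not between batches of embryos. *Nvncol1* cells were compared with the 15496 barcodes that held 0 *Nvncol1* UMIs, with 621 *NvLWamide* cells as a neuronal group, and with 2264 cells that had *Nvncol3* counts and no *Nvncol1*.

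Cnidocytes are the stinging cells of cnidarians, and each builds a capsule called a nematocyst that fires a coiled tubule. The capsule wall is made of minicollagens, very short collagens that become crosslinked through cysteine-rich ends, and *Nvncol1* and *Nvncol3* encode members of this family. In *N. vectensis*, cnidocytes and neurons derive from a shared pool of neural progenitors, for which reason genes of the neuronal lineage were read in the same cells. Doublets, that is, 2 cells in 1 droplet, were not removed by a caller, and no gene sequences or positions were available for these gene IDs in the tables used here.

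The 4 libraries held between 22980631 and 56880930 UMIs over all barcodes. Replicate 4 had the most barcodes and the fewest UMIs per barcode, with a median of 2267 UMIs per barcode with at least 500 genes, against 4986 to 6555.5 in replicates 1 to 3. The libraries shared 38 barcode sequences, 28 of them at 500 genes or more, and 1 *Nvncol1* cell carried such a sequence.

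*Nvncol1* cells numbered 46, 39, 28 and 106 in replicates 1 to 4, which was 1.25%, 1.34%, 1.23% and 1.47% of the barcodes with at least 500 genes. Over all libraries the share was 1.36% (95% Wilson interval 1.19 to 1.55, which covers counting error only), with a mean over libraries of 1.32% ± 0.106 (SD, n = 4). They held 2.10% of all UMIs in barcodes with at least 500 genes. They were deeper than other barcodes, with medians of 13353.5, 9561, 10105 and 5064 UMIs in *Nvncol1* cells of replicates 1 to 4, against 6340, 4949, 5217.5 and 2213 UMIs in barcodes with 0 *Nvncol1* UMIs. The median *Nvncol1* cell was therefore the deeper one in every library. The rule asked members for at least 2 *Nvncol1* UMIs and the other group for 0, which favours deep barcodes as members. How much of the difference in depth came from the rule was not tested.

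The level of *Nvncol1* itself chose these cells and is given as a description. It ranged from 203 to 32896 CPM with a median of 748, and 83 cells were at 1000 CPM or more. The count behind it was often low. Exactly 2 *Nvncol1* UMIs were found in 49 of the cells, and 63 had 10 or more. The 2 cells above 10000 CPM, 1 in replicate 2 and 1 in replicate 1, held 459 and 179 *Nvncol1* UMIs. The 219 cells held 74.8% of the *Nvncol1* UMIs of all barcodes with at least 500 genes, with 70.5%, 89.3%, 79.9% and 69.0% in replicates 1 to 4. The highest level among barcodes just below the limit was 199 CPM. A further 84 barcodes had 2 or more *Nvncol1* UMIs below that limit. These were very deep, with a median of 48751.5 UMIs. Another 283 barcodes had 1 *Nvncol1* UMI, and 7 barcodes passed both limits and held a *NvLWamide* UMI.

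The label of these cells was checked against *Nvncol3* (NV2g010686000.1), the other minicollagen gene listed as a cnidocyte marker. *Nvncol3* UMIs were present in 216 of the 219 cells. Its level per cell had a median of 15385 CPM and reached 46065. The lowest level above 0 was 269 CPM. Several cells were below the mean over libraries of barcodes with 0 *Nvncol1* UMIs, which was 983 CPM. A *Nvncol3* UMI alone therefore does not settle the label of a single cell. The 3 cells without *Nvncol3* had 13146, 4413 and 2559 UMIs in all. The listed ID of *NvNgal*, the remaining cnidocyte marker, was not a row of the matrices and was not analysed here. The ID NV2g005200000.1, which differs from it by 1 digit and which no source used here names, was singled out after its values were seen. It was detected in 215 of the 219 cells with a median of 5614 CPM. Both genes were found in 213 cells and neither in 1.

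**Figure D1:**
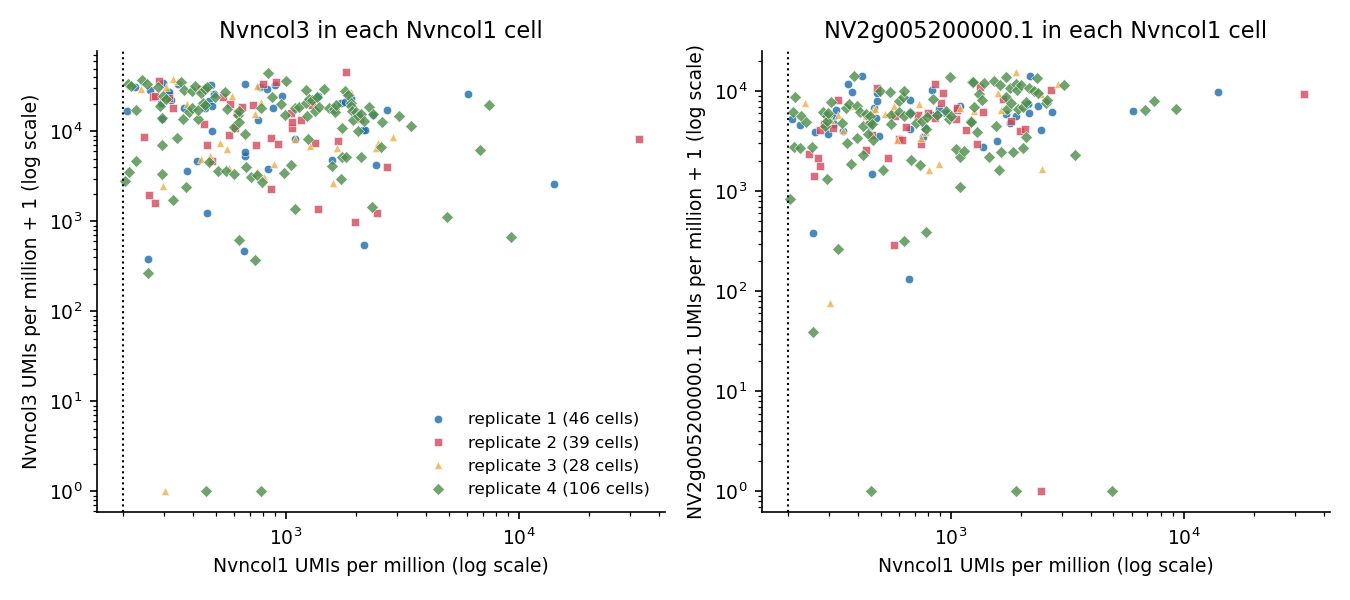
Levels of *Nvncol3* (left) and NV2g005200000.1 (right) in each of the 219 *Nvncol1* cells, against the *Nvncol1* level of the same cell, all in CPM on log scales and with 1 added on the vertical axis. The dotted line marks the limit of 200 CPM, and the 3 points at the bottom of the left panel are the cells without *Nvncol3*.

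Cells with the most *Nvncol1* did not have the most *Nvncol3*. Summed over cells, *Nvncol3* stood at 17549 CPM in the 49 cells with 2 *Nvncol1* UMIs, 19195 in the 107 cells with 3 to 9, and 10615 in the 63 cells with 10 or more. The cell with 459 *Nvncol1* UMIs had 8314 CPM of *Nvncol3*, below the median of all 219 cells. No test was made over these classes, whose median depths were 3404, 6125 and 21729 UMIs.

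The expression of *Nvncol3* in *Nvncol1* cells was far above that in the remaining barcodes. In UMIs summed per library, it reached 16226, 12689, 11907 and 13606 CPM in *Nvncol1* cells of replicates 1 to 4, against 1103, 927, 915 and 986 CPM in barcodes with 0 *Nvncol1* UMIs. The lowest *Nvncol1* library was above the highest of the other group, as it was for 10.4% of all genes tested. The fitted log2 fold change was 4.74 (SE 0.21, adjusted p = 1.25e-09, edgeR quasi-likelihood test) and lay between 3.24 and 5.06 under all 20 alternatives tried. NV2g005200000.1 followed the same order, with 5939, 4870, 5969 and 4926 CPM in *Nvncol1* cells, against 164, 137, 121 and 156 CPM in barcodes with 0 *Nvncol1* UMIs (log2 fold change 6.17, SE 0.22, adjusted p = 4.32e-10). The *Nvncol1* cells held 18.8% of the *Nvncol3* UMIs and 33.1% of the NV2g005200000.1 UMIs of barcodes with at least 500 genes.

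With every barcode thinned to 1000 UMIs, *Nvncol3* was detected in 97.8%, 97.4%, 92.9% and 93.3% of *Nvncol1* cells in replicates 1 to 4, against 16.2%, 12.8%, 12.0% and 27.2% of barcodes with 0 *Nvncol1* UMIs. Replicate 4 had the highest share among barcodes with 0 *Nvncol1* UMIs. The mean shares were 95.4% ± 2.63 in *Nvncol1* cells and 17.1% ± 6.99 in barcodes with 0 *Nvncol1* UMIs (SD, n = 4 libraries each). The difference of 78.3 percentage points had p = 0.0286 by the two-sided exact permutation test, the smallest p that 4 against 4 allows, and 0.0429 after adjustment over the 3 genes tested this way. With libraries as pairs the smallest p is 0.125, which was the value found. *Nvncol3* was also read in 580 mesoendodermal barcodes chosen by *NvsnailA*, and its share there was 5.11%, 2.91%, 5.26% and 11.9%. Whether its UMIs there came from free RNA or from doublets was not tested. A mean over libraries of 2.78% of the *NvsnailA* barcodes also held *Nvncol1* UMIs. These barcodes were deep, with a median of 20386.5 UMIs against 3631.5 in barcodes with 0 *Nvncol1* UMIs. Their share at 1000 UMIs need not hold for shallower barcodes. Unthinned, the mean share over libraries was 47.1% in *NvsnailA* barcodes and 37.1% in barcodes with 0 *Nvncol1* UMIs. Thinning left out 1 *Nvncol1* cell and 1903 of the other barcodes. Unthinned, *Nvncol3* was seen in 100%, 100%, 96.4% and 98.1% of *Nvncol1* cells, against 43.7%, 27.9%, 31.2% and 45.6% of barcodes with 0 *Nvncol1* UMIs.

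**Figure D2:**
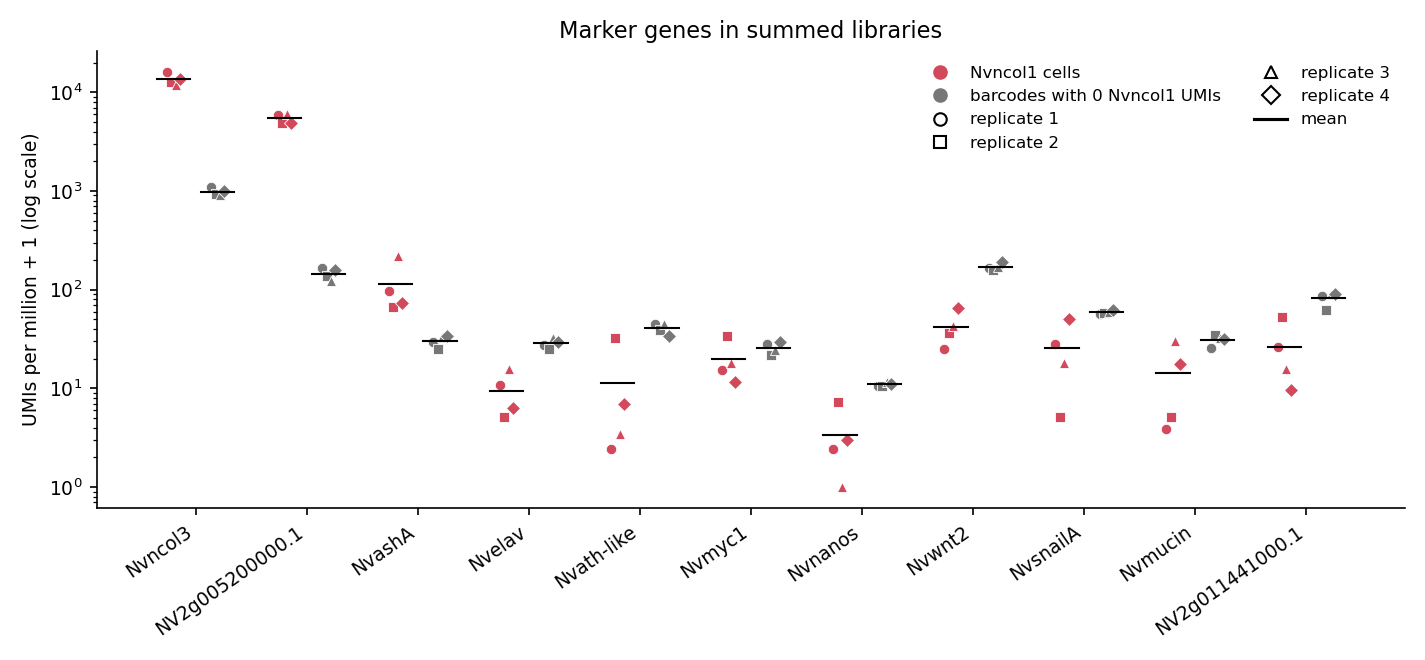
Marker genes and NV2g005200000.1 in CPM + 1 on a log scale, with *Nvncol1* cells on the left of each pair and barcodes with 0 *Nvncol1* UMIs on the right. Each symbol is 1 of the 4 libraries and the line is their mean. *Nvncol3*, NV2g005200000.1 and *NvashA* are higher in *Nvncol1* cells in every library. All other markers shown except *Nvmyc1* are lower in *Nvncol1* cells than in the other barcodes of the same library. Over all genes tested, 58.5% had all *Nvncol1* libraries below the other group.

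Across all genes, 16045 passed the filter on low counts and 5419 of them were called at an adjusted p under 0.05, which was 33.8%. Of these, 3050 (19.0%) were higher and 2369 (14.8%) were lower in *Nvncol1* cells, and 920 were called at least 10-fold higher against 191 at least 10-fold lower. This split rests on the scaling. The main scaling, TMM, assumes that most genes do not differ. When only library sizes were used, the median log2 fold change shifted by -0.91, and 1823 genes were called higher and 9614 lower. The count of lower genes was 1330 without replicate 1 and 1388 without replicate 3. The libraries of both groups did not overlap for 68.9% of the genes tested, with 10.4% above and 58.5% below, and counts of library order for single genes are to be read against those shares.

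Among the genes of the neuronal lineage, 1 was called higher and 1 lower, against 19.0% higher and 14.8% lower over all genes tested. *NvashA* (NV2g009665000.1), an achaete-scute family transcription factor of neurogenesis, was at 94.9, 66.2, 220 and 72.6 CPM in *Nvncol1* cells of replicates 1 to 4, against 28.5, 24.2, 32.1 and 32.9 CPM in barcodes with 0 *Nvncol1* UMIs. Every *Nvncol1* library was above every library of the other group, as for 10.4% of all genes tested, and replicate 3 was the highest. The log2 fold change was 2.80 (SE 0.31, adjusted p = 1.29e-05), and 1.87 with library sizes alone (adjusted p = 2.90e-04). *NvashA* UMIs were found in 51 of the 219 cells, namely 10, 8, 9 and 24 cells in replicates 1 to 4. A single cell held 16 of the 32 *NvashA* UMIs of *Nvncol1* cells in replicate 2, and a single cell held 30 of the 90 in replicate 3. The level without that cell was 35.4 CPM in replicate 2 and 171 CPM in replicate 3.

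The call of *NvashA* did not hold when each barcode was thinned to 1000 UMIs before summing (log2 fold change 0.98, adjusted p = 0.0579), or when any barcode with 1 *Nvncol1* UMI was taken as a member (1.26, adjusted p = 0.0667). The share of cells with a *NvashA* UMI at 1000 UMIs was 7.20% ± 5.16 in *Nvncol1* cells and 2.36% ± 0.915 in barcodes with 0 *Nvncol1* UMIs (SD, n = 4 libraries each, two-sided exact permutation p = 0.0571). It was 0.572% ± 0.664 in *NvsnailA* barcodes. Unthinned, the shares were 21.7%, 20.5%, 32.1% and 22.6% of *Nvncol1* cells in replicates 1 to 4, against 5.16%, 3.66%, 4.85% and 6.51% of barcodes with 0 *Nvncol1* UMIs.

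*Nvelav* (NV2g000252000.1), an RNA-binding protein gene of differentiated neurons, stood at 9.92, 4.14, 14.7 and 5.28 CPM in *Nvncol1* cells, against 26.7, 24.2, 31.7 and 28.3 CPM in barcodes with 0 *Nvncol1* UMIs. All 4 *Nvncol1* libraries were below the other group, as they were for 58.5% of all genes tested. The log2 fold change was -0.97 (SE 0.32, adjusted p = 0.0327). The call was lost with the libraries as pairs (adjusted p = 0.0571), without replicate 2 (0.0721), without replicate 4 (0.201), and when *Nvncol1* cells were allowed *NvLWamide* UMIs (0.202). The absence of *NvLWamide* was part of the rule, so the level of a gene expressed in the same neurons is not independent of it. *Nvelav* UMIs were found in 19 of the 219 cells, and 8 cells held both *Nvelav* and *NvashA*. At 1000 UMIs, the share with *Nvelav* was 0.238% ± 0.476 in *Nvncol1* cells and 2.50% ± 0.398 in barcodes with 0 *Nvncol1* UMIs (SD, n = 4 each, two-sided exact permutation p = 0.0286, adjusted 0.0429). At 2000 UMIs this test gave p = 0.0857 by the same exact permutation, and unthinned it gave p = 0.600.

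None of the 3 listed progenitor markers passed the main test, but for *Nvath-like* and *Nvnanos* that outcome depended on the setting. *Nvath-like* (NV2g006608000.1), a proneural transcription factor, was at 1.42, 31.0, 2.45 and 5.94 CPM in *Nvncol1* cells, against 43.7, 37.8, 43.6 and 32.5 CPM in barcodes with 0 *Nvncol1* UMIs (log2 fold change -1.29, SE 0.48, adjusted p = 0.0551). Replicate 2 was close to the other group and the remaining replicates were far below it. *Nvnanos* (NV2g000437000.1), of a family of translational regulators in stem and germ cells, had 1.42, 6.21, 0 and 1.98 CPM in *Nvncol1* cells, against 9.58, 9.57, 10.7 and 10.0 CPM in barcodes with 0 *Nvncol1* UMIs (log2 fold change -1.24, SE 0.45, adjusted p = 0.0504). Both were lower under all 21 alternatives, and *Nvath-like* stayed short of the threshold in 12 of them and *Nvnanos* in 14. *Nvath-like* was called lower with library sizes alone (-2.19), with the libraries as pairs (-1.26, adjusted p = 0.00959) and without replicate 2 (-2.39, adjusted p = 0.00140). *Nvnanos* was called lower with library sizes alone (-2.14) and without replicate 2 (-1.84, adjusted p = 0.0212). *Nvmyc1* (NV2g018827000.1), a Myc family transcription factor, overlapped between the groups. Its log2 fold change was 0.31 (SE 0.31, adjusted p = 0.460), and -0.60 with library sizes alone, and it ran from -0.13 to 0.68 without single libraries. UMIs of any of the 3 were found in 21 of the 219 cells.

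Of 4 markers of other cell types of the gastrula, 1 was called lower in *Nvncol1* cells and none higher, against 14.8% of all genes tested called lower and 58.5% with all *Nvncol1* libraries below. *Nvwnt2* (NV2g003168000.1), a Wnt ligand of the trunk ectoderm, was at 24.1, 35.2, 41.6 and 64.0 CPM in *Nvncol1* cells, against 166, 157, 167 and 190 CPM in barcodes with 0 *Nvncol1* UMIs (log2 fold change -1.07, SE 0.21, adjusted p = 0.00165). The groups did not overlap. *NvsnailA* (NV2g000472000.1), a transcription factor of the mesoendoderm, ranged from 4.14 to 49.5 CPM in *Nvncol1* cells and from 55.4 to 61.8 CPM in barcodes with 0 *Nvncol1* UMIs (log2 fold change -0.07, adjusted p = 0.901). Its sign was not stable, with -0.82 without replicate 4 and 0.17 without replicate 2. The gland gene *Nvmucin* (NV2g012902000.1) ranged from 2.83 to 29.3 CPM in *Nvncol1* cells and from 24.5 to 33.8 CPM in the other barcodes (-0.31, adjusted p = 0.524). The ectodermal ID NV2g011441000.1, which the study lists under 2 gene names, ranged from 8.58 to 51.7 CPM in *Nvncol1* cells and from 61.6 to 90.3 CPM in the other barcodes (-0.96, adjusted p = 0.0778). With library sizes alone these 3 were also called lower. A UMI of *Nvwnt2*, *NvsnailA* or *Nvmucin* was present in 48 of the 219 cells, and without those cells 8747 genes were called in place of 5419. Of the 8747, 2864 were higher and 5883 lower, with a median shift of -0.63 in log2 fold change. Without those cells, *Nvncol3* (5.06), *NvashA* (2.72) and *Nvelav* (-1.81) kept their direction and their call, and *Nvath-like* (-2.99) and *Nvnanos* (-1.75) were called lower. At 1000 UMIs, *Nvncol3* was then found in 97.4%, 96.9%, 100% and 96.2% of *Nvncol1* cells in replicates 1 to 4.

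The 2 genes with the largest rise, among called genes with the same direction in each of the 4 libraries and a mean of at least 50 CPM where they were higher, differed in how many cells carried them. NV2g006826000.1 was at 152, 39.3, 110 and 44.2 CPM in *Nvncol1* cells of replicates 1 to 4, against 0.050, 0.043, 0.186 and 0.256 CPM in barcodes with 0 *Nvncol1* UMIs (log2 fold change 10.07, SE 0.61, adjusted p = 2.67e-08). It was present in 57 of 219 *Nvncol1* cells (26.0%) and in 17 of 15496 other barcodes. The share of *Nvncol1* cells with it was 28.3%, 30.8%, 28.6% and 22.6% in replicates 1 to 4, and no cell held more than 26 of its 238 UMIs. The gene was thus present in about the same share of cells in each library.

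NV2g011818000.1 had the largest fitted rise (log2 fold change 10.65, SE 1.07, adjusted p = 4.41e-06) but uneven levels, with 1.42, 298, 7.34 and 110 CPM in *Nvncol1* cells, against 0.025, 0.172, 0 and 0.197 CPM in barcodes with 0 *Nvncol1* UMIs. Its 315 UMIs lay in 7 of the 219 cells. A cell of replicate 2 held 144 of them and a cell of replicate 4 held 159. The first was the cell with 459 *Nvncol1* UMIs, and the second ranked 2 by *Nvncol1* level within replicate 4, at 7487 CPM. Both had *Nvncol3* (8314 and 19555 CPM) and no *NvLWamide*. Outside these cells, a single barcode with at least 500 genes had 10 or more UMIs of it, and that barcode held 1 *Nvncol1* UMI and 28193 CPM of *Nvncol3*. When the 2 cells above 10000 CPM of *Nvncol1* were left out, an alternative added after the data were seen, the gene fell below the filter on low counts while 5330 genes were called.

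The 2 genes with the largest fall were abundant in *NvLWamide* cells. NV2g014774000.1 was at 1.42, 4.14, 2.45 and 1.32 CPM in *Nvncol1* cells, against 173, 172, 246 and 198 CPM in barcodes with 0 *Nvncol1* UMIs (log2 fold change -5.75, SE 0.32, adjusted p = 1.20e-08). It was found in 6 of 219 *Nvncol1* cells, each with 1 UMI, and in 1450 of the other barcodes. NV2g015189000.1 had 2 UMIs in all *Nvncol1* cells and 6967 in the other barcodes. Its level was 80.0 times lower in *Nvncol1* cells by summed UMIs, with an exact 95% counting interval of 22.1 to 660, and its adjusted p was 5.32e-05. Neither difference was called when barcodes with *NvLWamide* UMIs were admitted as *Nvncol1* cells, with log2 fold changes of -0.48 (adjusted p = 0.715) and 6.04e-05 (adjusted p = 1). That setting added 7 barcodes, none of them in replicate 2, and the deepest had 277444 UMIs. Both calls thus depend on the *NvLWamide* condition of the rule, and their loss rests on those added barcodes.

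Against *NvLWamide* cells, *Nvncol1* cells differed in *Nvncol3*, NV2g005200000.1 and both neuronal genes read. *NvLWamide* cells were defined like *Nvncol1* cells, with at least 2 UMIs and 200 CPM of *NvLWamide* and 0 *Nvncol1* UMIs, and numbered 110, 75, 67 and 369 in replicates 1 to 4. Of 8062 genes tested, 3457 (42.9%) were called, 1861 (23.1%) higher and 1596 (19.8%) lower in *Nvncol1* cells. With library sizes alone these were 1135 and 4151. Library sums did not overlap for 59.9% of the genes (14.0% above and 45.9% below). *Nvncol3* was at 16226, 12689, 11907 and 13606 CPM in *Nvncol1* cells, against 206, 65.6, 625 and 947 CPM in *NvLWamide* cells (log2 fold change 5.63, SE 0.69, adjusted p = 3.52e-05). *Nvelav* was at 4.14 to 14.7 CPM in *Nvncol1* cells and at 230 to 321 CPM in *NvLWamide* cells (-4.46, SE 0.35, adjusted p = 6.85e-07). *NvLWamide* itself split these groups. Differences in genes expressed in the same neurons, and their p-values, are therefore not independent of the rule.

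The *NvashA* level of *Nvncol1* cells lay below that of *NvLWamide* cells. It averaged 113 ± 72.1 CPM in *Nvncol1* cells and 430 ± 38.2 CPM in *NvLWamide* cells (SD, n = 4 libraries each), a log2 fold change of -1.25 (SE 0.34, adjusted p = 0.0113 from edgeR). Without replicate 2 the change was -0.99 (adjusted p = 0.0679). *Nvnanos* was lower in *Nvncol1* cells (-2.79, SE 0.55, adjusted p = 0.00143), and so was *Nvath-like* (-1.86, SE 0.54, adjusted p = 0.0146), although *Nvath-like* lost its call without replicate 1, 3 or 4 (adjusted p 0.0656, 0.0759 and 0.0849). NV2g014774000.1 was at most 4.14 CPM in *Nvncol1* cells and at least 3157 CPM in *NvLWamide* cells. NV2g015189000.1 was at most 2.45 CPM in *Nvncol1* cells and at least 698 CPM in *NvLWamide* cells. Both IDs were picked for their fall against barcodes that include the *NvLWamide* cells, and *NvLWamide* split the groups. Their contrast here is not independent of that pick or of the rule. NV2g006826000.1 was absent from all 4 *NvLWamide* libraries. Its summed level was at least 157-fold higher in *Nvncol1* cells when the *NvLWamide* group is set to a floor of 3 UMIs over the group. The gene was picked for its rise over barcodes that include the *NvLWamide* cells, so its absence there is not independent of that pick.

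**Figure D3:**
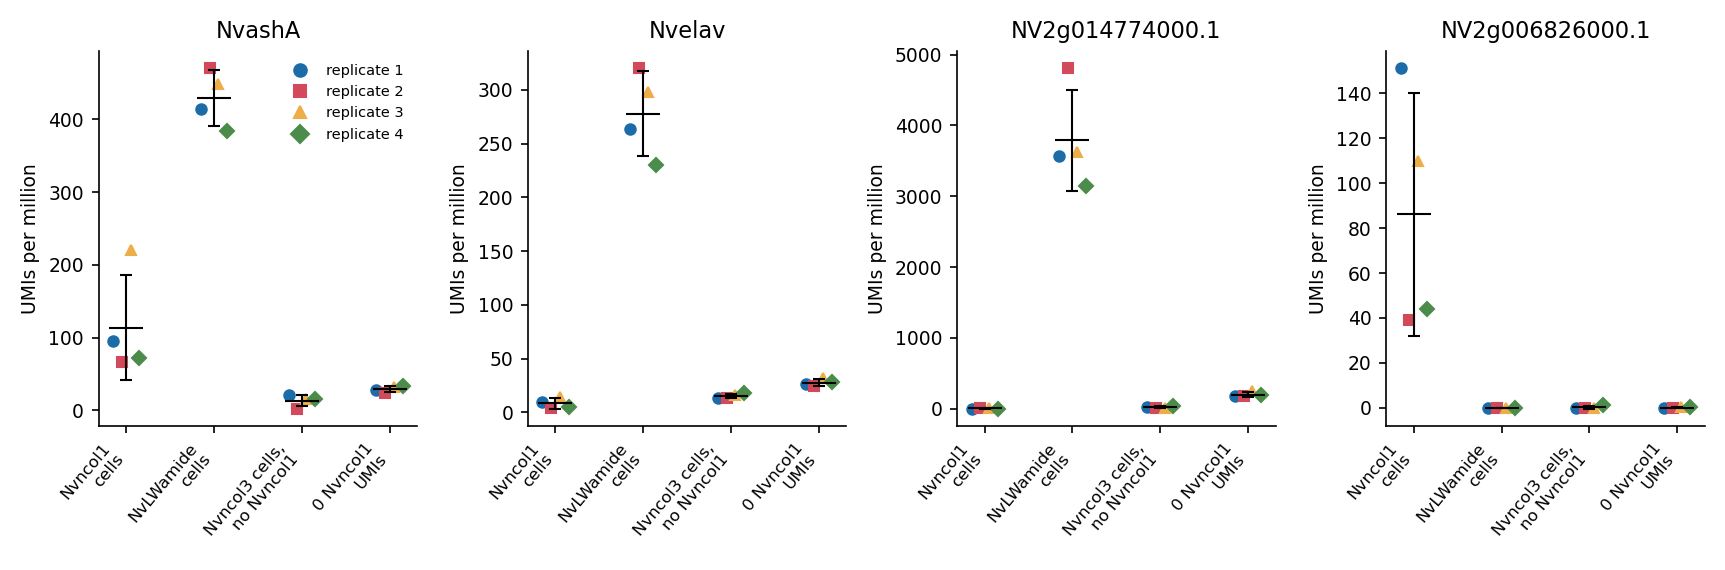
*NvashA*, *Nvelav*, NV2g014774000.1 and NV2g006826000.1 in CPM in *Nvncol1* cells, *NvLWamide* cells, *Nvncol3* cells without *Nvncol1* and barcodes with 0 *Nvncol1* UMIs. Symbols are libraries, and black lines with bars are the mean and SD of 4 libraries. *NvashA* is highest in *NvLWamide* cells and next highest in *Nvncol1* cells. NV2g006826000.1, picked for its rise over barcodes with 0 *Nvncol1* UMIs, is near 0 outside *Nvncol1* cells. The barcodes with 0 *Nvncol1* UMIs include the *NvLWamide* cells and the *Nvncol3* cells without *Nvncol1*.

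*Nvncol3* cells without *Nvncol1* were those with at least 2 UMIs and 200 CPM of *Nvncol3* and no UMI of *Nvncol1* or *NvLWamide*. They numbered 435, 272, 195 and 1362 in replicates 1 to 4. They were shallower, with a median of 7908 UMIs in *Nvncol1* cells and 2903.5 UMIs in *Nvncol3* cells without *Nvncol1*. Whether *Nvncol1* was missed in them at this depth was not tested. Nor was it tested whether free *Nvncol3* RNA brought barcodes past the limit of 200 CPM. The mean *Nvncol3* level in *NvsnailA* barcodes was 133 CPM. *Nvncol3* chose the cells without *Nvncol1* and was left out of the fit. Its level was 16209, 12669, 11897 and 13596 CPM in *Nvncol1* cells and 8769, 9736, 8883 and 5844 CPM in *Nvncol3* cells without *Nvncol1*.

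Of 10299 genes tested between these groups, 2711 (26.3%) were called, 1857 (18.0%) higher and 854 (8.29%) lower in *Nvncol1* cells. With library sizes alone 1113 were higher and 5401 lower. Library sums did not overlap for 56.4% of the genes (9.98% above and 46.4% below). The count of lower genes was 347 without replicate 1 and 372 without replicate 3. NV2g005200000.1 was at 6037, 4932, 6041 and 4994 CPM in *Nvncol1* cells, against 1273, 1410, 1160 and 897 CPM in *Nvncol3* cells without *Nvncol1* (log2 fold change 2.95, SE 0.23, adjusted p = 6.96e-07). *NvashA* was at 96.5, 67.1, 223 and 73.6 CPM in *Nvncol1* cells, against 20.7, 2.39, 15.0 and 15.4 CPM in *Nvncol3* cells without *Nvncol1* (3.73, SE 0.50, adjusted p = 9.15e-05). The lowest *Nvncol1* library was above the highest of the other group for both genes.

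NV2g006826000.1 was present in all 4 libraries of *Nvncol1* cells, at 39.8 to 154 CPM, and had 9 UMIs in *Nvncol3* cells without *Nvncol1*, all in replicate 4 (log2 fold change 7.99, SE 0.75, adjusted p = 3.49e-06). The fitted value was 6.90 without replicate 1 and 11.10 without replicate 4, where the cells without *Nvncol1* had 0 UMIs and the fit gives no bound. NV2g006826000.1 was picked for its rise over barcodes that include the *Nvncol3* cells without *Nvncol1*. Its low level there, and the p-value, are not independent of that pick. *Nvwnt2* was lower in *Nvncol1* cells (-1.12, SE 0.22, adjusted p = 0.00215). *Nvnanos* was lower as well (-1.88, SE 0.48, adjusted p = 0.0121), with its call lost without replicate 1 or 4 (adjusted p 0.0579 and 0.0751). *Nvelav* differed by -0.28 (SE 0.36, adjusted p = 0.592), and was called lower with library sizes alone (adjusted p = 0.0263). All 3 comparisons share the same *Nvncol1* cells, and the barcodes with 0 *Nvncol1* UMIs include the other groups, so their values are not independent.

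**Figure D4:**
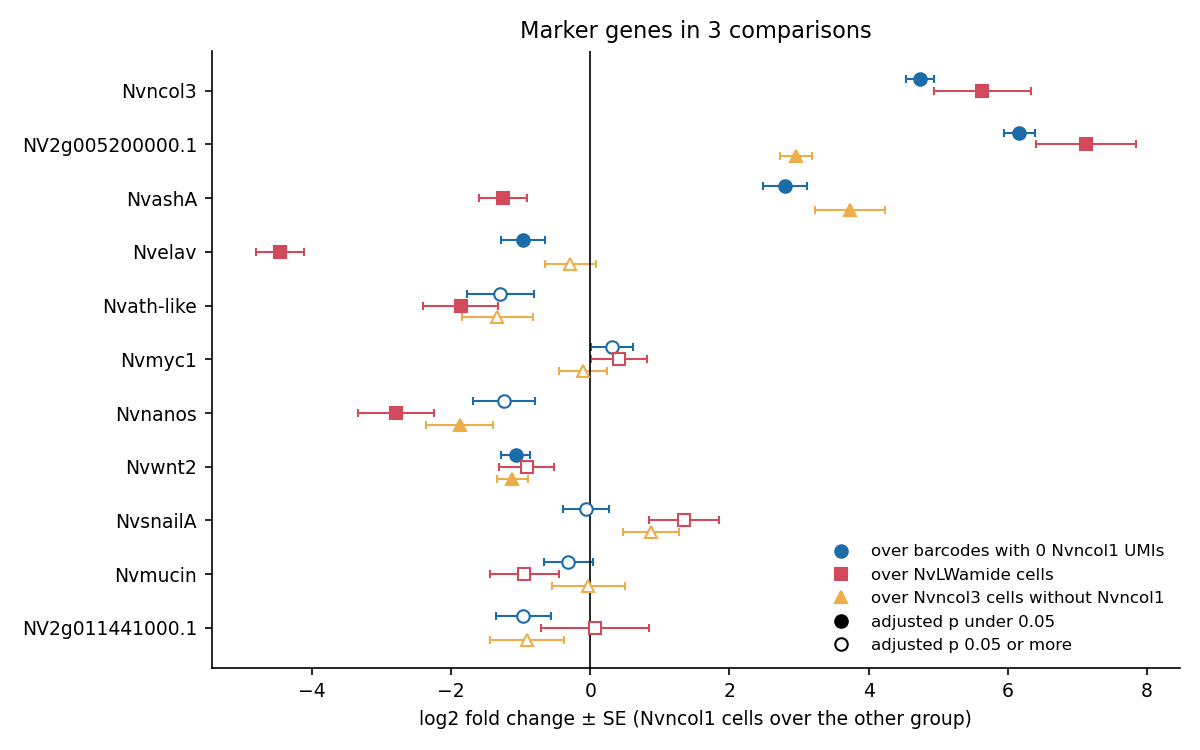
Log2 fold changes with SE of the marker genes and NV2g005200000.1 in *Nvncol1* cells over each of 3 groups, from edgeR. Filled symbols have an adjusted p under 0.05. *NvashA* is higher in *Nvncol1* cells than in barcodes with 0 *Nvncol1* UMIs and *Nvncol3* cells without *Nvncol1*, and lower than in *NvLWamide* cells. *Nvncol3* is not shown over the group it chose.

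Fewer genes were detected in *Nvncol1* cells than in the other groups at equal depth. At 1000 UMIs per barcode, the median number of genes was 458, 471, 484.5 and 509 in *Nvncol1* cells of replicates 1 to 4, against 604, 614, 615 and 641 in barcodes with 0 *Nvncol1* UMIs. Every *Nvncol1* library was below every library of the other barcodes. The means were 481 ± 21.8 genes in *Nvncol1* cells and 619 ± 15.8 in barcodes with 0 *Nvncol1* UMIs (SD, n = 4 each), a difference of -138 genes (two-sided exact permutation p = 0.0286, the smallest possible). The means in the remaining groups were 588 ± 23.1 genes in *NvLWamide* cells, 580 ± 38.1 in *Nvncol3* cells without *Nvncol1* and 614 ± 14.4 in *NvsnailA* barcodes, and each differed from *Nvncol1* cells with the same exact permutation p = 0.0286.

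The 10 most abundant genes of each library held 19.9%, 15.7%, 16.9% and 13.9% of the UMIs of *Nvncol1* cells in replicates 1 to 4, against 9.42%, 9.07%, 9.14% and 9.30% in barcodes with 0 *Nvncol1* UMIs. The 10 genes were taken anew in each group and library. The means were 16.6% ± 2.52 in *Nvncol1* cells and 9.23% ± 0.157 in barcodes with 0 *Nvncol1* UMIs (SD, n = 4 each, two-sided exact permutation p = 0.0286). The same measure averaged 12.6% ± 0.524 in *NvLWamide* cells and 9.34% ± 0.205 in *Nvncol3* cells without *Nvncol1*. For the top 100 genes the means were 44.4% ± 2.77 in *Nvncol1* cells and 35.5% ± 0.673 in barcodes with 0 *Nvncol1* UMIs, with the same exact p = 0.0286. This measure was added after the data were seen.

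**Figure D5:**
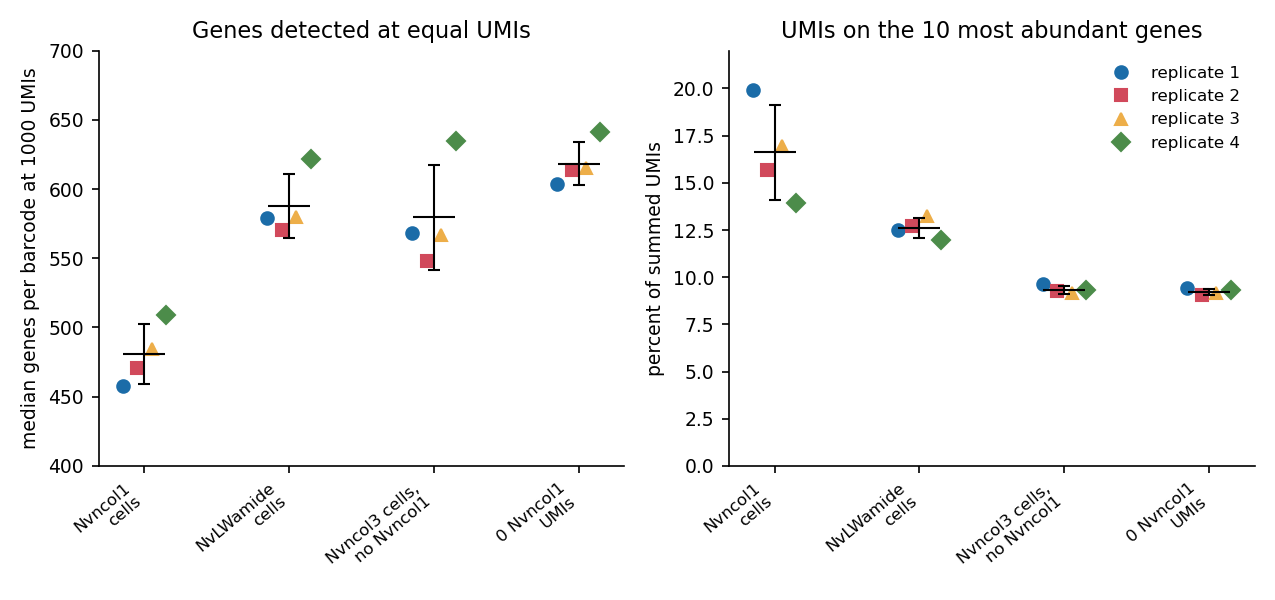
Left, median genes per barcode at 1000 UMIs, on an axis that starts at 400. Right, percent of summed UMIs on the 10 most abundant genes of each group and library. Symbols are libraries, and black lines with bars are the mean and SD of 4 libraries. *Nvncol1* cells have the fewest genes, 458 to 509, and the most concentrated UMIs, 13.9% to 19.9%.

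The 10 listed mitochondrial genes held 1.31%, 0.839%, 0.574% and 0.695% of UMIs in *Nvncol1* cells, against 1.13%, 0.918%, 0.710% and 0.909% in barcodes with 0 *Nvncol1* UMIs. The groups overlapped, with means of 0.856% ± 0.325 in *Nvncol1* cells and 0.916% ± 0.170 in barcodes with 0 *Nvncol1* UMIs (SD, n = 4 each, two-sided exact permutation p = 0.714). Nearly all of this came from 1 gene, NV2g025931000.1. Without it, *Nvncol1* cells were lower in every library, with a mean difference of -0.0475 percentage points (exact permutation p = 0.0286). This is a share of raw UMIs, on which most genes were lower. With library sizes alone the median log2 fold change over all genes was -1.18, and 58.5% of genes had all *Nvncol1* libraries below. The difference is therefore not read as particular to these genes. Gene by gene, all 10 were tested, and 2 were called higher and 2 lower, against 19.0% higher and 14.8% lower over all genes tested, with a median log2 fold change of -0.22, against -0.28 over all genes tested. The rise of NV2g025931000.1 rests on the scaling, since its fold change was 0.96 with TMM and -0.02 with library sizes alone. No *Nvncol1* cell had more than 10% of its UMIs on these genes.

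Within the *Nvncol1* cells, the cells above the median *Nvncol1* level of their library were compared with the rest, among the 193 cells with at least 2000 UMIs. The upper group had 95 cells with a median of 6125 UMIs, and the lower group had 98 cells with a median of 13325 UMIs. Of 2886 genes tested with edgeR, 0 were called, 322 (11.2%) had an unadjusted p under 0.05, and DESeq2 called 5. The groups did not overlap for 6.93% of the genes, with 2.25% above and 4.68% below. *Nvncol3* was at 13334, 16071, 10843 and 12376 CPM in the upper group, against 18903, 10743, 12850 and 13919 CPM in the lower group (log2 fold change -0.02, SE 0.23, adjusted p = 0.971). The groups overlapped. NV2g005200000.1 was at 5489, 7445, 6468 and 7125 CPM in the upper group, against 6371, 3303, 5580 and 4251 CPM in the lower group (0.52, SE 0.24, adjusted p = 0.437). *NvashA* was at 97.0, 55.8, 246 and 278 CPM in the upper group, against 94.4, 71.4, 187 and 8.80 CPM in the lower group (1.05, SE 0.72, adjusted p = 0.522), and replicate 4 alone had levels far apart. These p-values do not show that the groups are alike.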

How the data were processed

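Whole embryos at 24 hpf were measured by single-cell RNA sequencing in 4 libraries. Per the paper's methods and the file headers, the authors aligned reads to introns and exons with CellRanger, and the deposited matrices hold unnormalized UMI counts of 24526 genes. The file header names version 6.1.2 and the submitters' processing notes 7.1.1, and the study's methods name another release. No genome build is given in the sources that were used. The gene IDs matched 0 entries of the RefSeq table, so genes outside the study's marker table are given by ID, and the 2 largest rises and 2 largest falls were named by rule (called, the same way in 4 of 4 libraries, mean of at least 50 CPM).

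UMIs were summed per library and group and tested with edgeR 4.0.16 in R 4.3.3 (quasi-likelihood, TMM, filterByExpr, Benjamini-Hochberg over all genes tested, threshold 0.05). *Nvncol1* was left out of counts and library sizes, as were *NvLWamide* and *Nvncol3* where they chose a group. Printed SEs are the absolute log2 fold change over the square root of F. Shares and genes per barcode were read after thinning to 1000 UMIs, with exact permutation tests over libraries (scipy 1.17.1). DESeq2 1.42.0, other scalings, filters, limits of the rule, depth matching, leaving out libraries and a replicate block were alternatives. The block pairs groups because both sums come from the same library, and the correlations of their deviations in the first comparison were 0.225, 0.0899, 0.0945 and 0.165 in replicates 1 to 4. On simulated data for the first comparison, edgeR recovered 100% of 200 genes changed 4-fold, with 9 false calls among 16127 genes. The simulation used a single fixed dispersion and as many rises as falls, placed in genes with enough expected counts. The data differ in many more genes and depend on the scaling, so these rates do not carry over to the calls reported here. The depth per library was 22980631 to 56880930 UMIs. The cells and marker lists were chosen with earlier results of these data known.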

Additional observations from a re-analysis of the deposited data

Results flagged for a closer look

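Groups of 4 libraries allow a test for a value far from the others, which chance alone would meet in about 1 in 20 groups. The test was run over many genes and groups with no adjustment for their number. Some of the values flagged below are therefore to be met by chance alone. *Nvath-like* in *Nvncol1* cells was at 31.0 CPM in replicate 2, far from the 1.42, 2.45 and 5.94 CPM of the other replicates. *Nvwnt2* in *Nvncol3* cells without *Nvncol1* was at 124 CPM in replicate 2, below the other libraries of that group. The share of *Nvncol1* cells with a *Nvelav* UMI at 1000 UMIs was 0.952% in replicate 4, from 1 of 105 cells, and 0 in replicates 1 to 3. With 0 in those replicates any value above 0 is flagged, so the rate of 1 in 20 does not apply to it. Outside the barcodes compared, 11 barcodes with fewer than 500 genes also met the *Nvncol1* rule, with 1, 2, 2 and 6 in replicates 1 to 4. Their *Nvncol3* level was 4702, 9282, 1460 and 6031 CPM. The cause of these values was not tested.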

How the results depend on the processing

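The count of 5419 genes called between *Nvncol1* cells and barcodes with 0 *Nvncol1* UMIs became 11437 with library sizes only, 3323 when 1 *Nvncol1* UMI made a member, and 8747 without members holding *Nvwnt2*, *NvsnailA* or *Nvmucin*. It was 4098 to 5076 without single libraries. With library sizes only it was 5286 against *NvLWamide* cells and 6514 against *Nvncol3* cells without *Nvncol1*. Between the upper and lower *Nvncol1* groups, DESeq2 called 5 genes, no filter 68 and thinning to 2000 UMIs 7. At 1000 UMIs per barcode summed, *Nvmyc1* turned to -2.62 (adjusted p = 0.0292), and with *NvLWamide* UMIs allowed NV2g015189000.1 turned to 6.04e-05. The replicate block called 4754, 3284 and 2617 genes in the 3 comparisons and 0 between the upper and lower *Nvncol1* groups. With libraries as pairs the share differences, 78.3 for *Nvncol3* and -2.26 for *Nvelav*, are the same by construction. Only p changes, and it cannot go below 0.125. Without single libraries p cannot go below 0.10, and the differences ran from 76.2 to 82.4 points (*Nvncol3*), -2.36 to -2.10 points (*Nvelav*) and -140.3 to -135 genes per barcode. For *NvashA* the difference in share passed the test at 10.7 points (at least 1000 CPM), 11.1 (2000 UMIs) and 19.2 (no thinning). For *Nvelav* it did not at -3.23 (2000 UMIs) and -1.88 (no thinning). The mitochondrial share without NV2g025931000.1 differed by -0.0475 points, as a share of raw UMIs, on which most genes were lower. The mean percent of *Nvncol1* cells was 0.751 with at least 5 UMIs, 0.466 with at least 1000 CPM, 3.18 with 1 UMI, 1.56 at 1000 genes, 1.20 at 300 genes and 1.045 without members holding other markers. The alternative reference without *Nvncol3* or *NvNgal* was run with *Nvncol3* alone. The cause of these changes was not tested beyond what each setting changes by construction. Low UMI counts per cell limit *NvashA* and *Nvelav*.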
